A study of Rattus norvegicus with 6 samples.

Results

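The genes described here control plasminogen activation and blood coagulation at the cell surface. They are *Plaur*, *Plau*, *Plat*, *Serpinb2*, *F3*, *F10*, *Thbd*, *Procr* and *Tfpi*, 9 of the 14217 genes that the array names by at least 1 probe set, and they are taken by name. They were measured in CD163+ macrophages of the rat brain, the perivascular and meningeal cells that the study calls border-associated macrophages (BAMs). The cells came from adult male Sprague-Dawley rats, of which 3 were non-ischemic controls (rats 63, 68 and 69) and 3 were ischemic (rats 64, 65 and 66), in which the right middle cerebral artery had been closed for 1 h and reperfused for 16 h. Cells positive for CD11b and CD163 were sorted from the right hemisphere of each rat, and each rat gave 1 Affymetrix array. All values are log2 RMA values, so a difference of 1 is a doubling of signal. "Rose" and "fell" are used of genes with an adjusted p under 0.01 in limma's moderated linear model of ischemia minus control, with p-values adjusted by the Benjamini-Hochberg method over all 9928 genes that passed a filter on low signal.

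Plasminogen circulates in blood and is cut to plasmin, a protease that dissolves fibrin and opens the extracellular matrix. Urokinase (*Plau*) and tissue plasminogen activator (*Plat*) make this cut, the urokinase receptor (*Plaur*) holds urokinase on the cell surface, and PAI-2 (*Serpinb2*) inhibits both activators. Coagulation starts where blood meets tissue factor (*F3*), which leads to activation of factor X (*F10*) and then to thrombin. Thrombomodulin (*Thbd*) and the endothelial protein C receptor (*Procr*) turn thrombin toward activation of the anticoagulant protein C, and tissue factor pathway inhibitor (*Tfpi*) blocks the initiating step. Many of these proteins are best known from endothelium, and BAMs sit beside the vessels.

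After ischemia, the receptor of urokinase and both surface receptors of the protein C pathway were strongly raised, and *F10* rose to a smaller extent. The change in *Procr* was 4.24 on the log2 scale (SE 0.30), that in *Thbd* was 3.49 (SE 0.59), that in *Plaur* was 3.03 (SE 0.37) and that in *F10* was 1.14 (SE 0.18), with n = 3 rats per group. *Plau*, *Plat* and *Tfpi* were not past the test, and *Serpinb2* and *F3* lay under the low-signal filter and were not tested. All control values of *Procr* were within background, so its change is known only to be at least 3.20 on the log2 scale, and it entered the test through the ischemic rats alone. Of the 7 genes tested, 4 rose, *Procr* among them, and 0 fell. These counts describe the 7 and are no support for the 9 as a group. Over all genes tested, 16.8% rose and 5.99% fell. A rise beyond 2 on the log2 scale was fitted for 3 of the 7, again with *Procr*, against 1.63% of all genes tested. Without control 63, an array that stood apart, 5 of the 7 rose, against 1006 of the 9928 genes tested. The changes were 4.31 in *Procr*, 3.15 in *Plaur*, 1.23 in *F10* and 4.0 in *Thbd*. The sizes for *Procr* and *Thbd* are uncertain, as the controls left were within or close to background. The gene added was *Plat* (1.39), which was within background in controls 68 and 69, so the size of its change is not known. Without control 68 or without control 69, 3 rose, as the call of *Thbd* was lost (adjusted p = 0.0158 and 0.0112). Of all genes tested, 1110 rose without control 68 and 985 without control 69. The median log2 fold change of the 7 over all rats was 1.14, against 0.10 over all genes tested. The values of the 2 groups of rats did not overlap for 4 of the 7, and 55.6% of all genes tested had groups that did not overlap, so that count on its own is close to the background. Ranked by fitted rise among the 9928 genes, *Thbd* was number 30, *Plaur* number 53 and *F10* number 673, whereas *Tfpi* was number 4922.

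**Figure D1:**
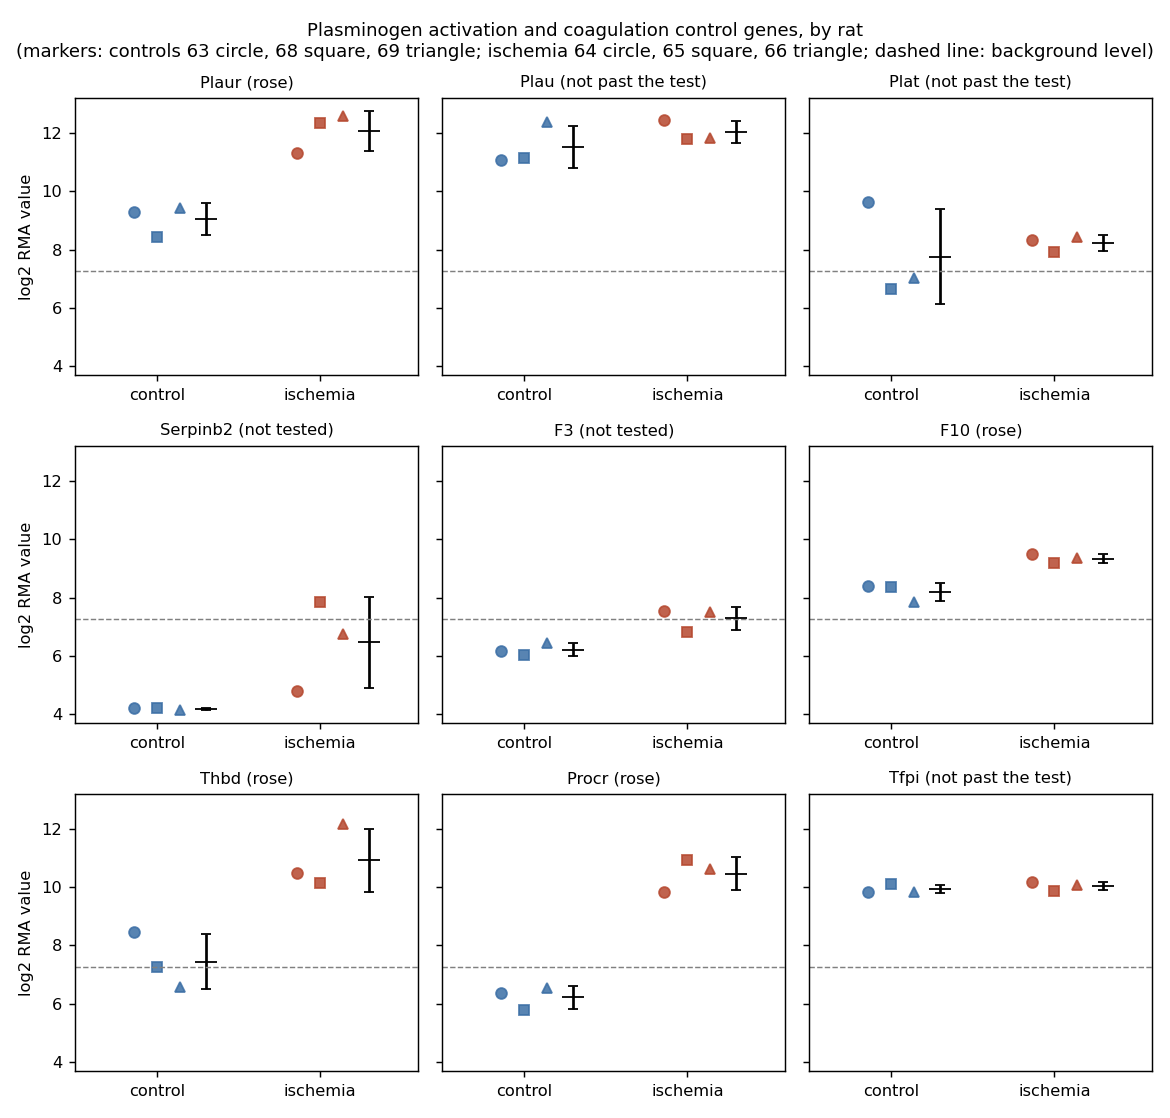
Log2 RMA values (y axis) of the 9 genes in each control rat (blue) and each ischemic rat (red), with the group mean and SD as black bars (n = 3 rats) and the background level of 7.26 as a dashed line. *Plaur*, *F10*, *Thbd* and *Procr* stand higher in every ischemic rat than in any control, *Tfpi* is level, and control 63 stands alone in *Plat*.

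In bulk RNA from sorted cells, fewer cells of a type and less RNA per cell cannot be told apart. The arrays had medians of 7.82 to 7.9, and values differed on average by 0.24 to 0.30 between control rats, by 0.19 to 0.26 between ischemic rats and by 0.37 to 0.52 across the groups. Of 12 markers of BAMs, the 11 on the array were all above background in both groups, with *Cd163* at 13.30 in controls and 13.84 after ischemia. That difference was not past the test (adjusted p = 0.211). Of the 11, *Cd14* and *Itgam* rose and 0 fell, but the median log2 fold change was -0.56. *Ms4a7* was lower by -1.02 (adjusted p = 0.0109). Background was taken as 7.26, the 90th percentile of 28 genes of other tissues, of which the highest had a mean of 8.74. The 3′ minus 5′ difference of the actin probe sets, which widens with shorter labelled RNA, ranged from 0.0582 to 0.073 on the control arrays and from 0.168 to 0.237 on the ischemic ones, and its part in the results was not tested. The array of control 63 stood apart. Its highest value was 13.85 against 14.88 to 14.96 on the others, and it carried more signal of vessel and astrocyte genes, which are given below beside the genes they touch.

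For 3 of the genes that rose, the RefSeq promoter table (assembly GRCr8) held the 250 bases before the transcription start. They are shown because these genes rose, with matches to 3 motifs in capitals. The motifs, searched on both strands, were AP-1 (TGANTCA), the core of the hypoxia response element (ACGTG or GCGTG) and kappa B (GGANTTTCC).
Plaur, chr1:89181113-89181362, plus strand: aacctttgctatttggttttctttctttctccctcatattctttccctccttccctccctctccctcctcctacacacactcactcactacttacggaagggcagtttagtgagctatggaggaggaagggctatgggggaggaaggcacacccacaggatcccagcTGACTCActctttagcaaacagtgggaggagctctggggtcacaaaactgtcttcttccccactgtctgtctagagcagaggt
Procr, chr3:164714477-164714726, plus strand: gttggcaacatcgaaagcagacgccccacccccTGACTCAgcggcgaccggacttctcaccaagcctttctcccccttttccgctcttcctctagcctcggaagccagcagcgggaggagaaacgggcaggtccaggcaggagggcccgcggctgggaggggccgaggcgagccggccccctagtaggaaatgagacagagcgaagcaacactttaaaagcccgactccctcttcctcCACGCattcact
F10, chr16:83190281-83190530, minus strand: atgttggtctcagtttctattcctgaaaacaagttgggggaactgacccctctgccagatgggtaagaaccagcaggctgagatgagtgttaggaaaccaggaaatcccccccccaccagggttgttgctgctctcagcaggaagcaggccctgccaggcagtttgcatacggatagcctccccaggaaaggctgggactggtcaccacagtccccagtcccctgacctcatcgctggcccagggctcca
The promoter of *Plaur* held the AP-1 letters TGACTCA 83 bases before the start, and that of *Procr* held the same letters 217 bases before it. The promoter of *Procr* also held the hypoxia core, as CACGC, the reverse complement of GCGTG, 12 bases before the start. None of the letters searched was in the window of *F10*. Of all 33469 promoters of this length in the table, 6.34% held an AP-1 match, 36.7% the hypoxia core and 1.08% a kappa B match. Among the 6 of 9 genes with an entry, *Serpinb2* held TGATTCA at 189 bases, *Plau* the hypoxia core at 7 bases and *Tfpi* at 190 bases, and a kappa B match was found in none of the 6. A match describes letters in a window and is not a binding site.

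*Plaur*, which encodes the receptor that gathers urokinase at the cell edge, read 9.30, 8.44 and 9.43 in controls 63, 68 and 69. It read 11.31, 12.34 and 12.61 in ischemic rats 64, 65 and 66. The lowest ischemic rat stood 1.88 above the highest control, and rat 64 was the lowest of the ischemic rats. The mean went from 9.06 ± 0.54 to 12.08 ± 0.69 (SD, n = 3), a log2 fold change of 3.03 (95% interval 2.17 to 3.88, adjusted p = 0.000936) or 8.15-fold. The identifier of the probe set used carries a suffix for probes that several transcripts share. A second, dimmer set read 7.88, 7.42 and 8.14 in controls and 8.54, 9.65 and 9.80 after ischemia, again with no overlap. Its change was smaller, at 1.52 (SE 0.33, adjusted p = 0.00882 in the fit over all probe sets), so the direction was shared and the size of the change depended on the probe set.

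*Plau*, urokinase itself, was far above background in controls, at 11.08, 11.16 and 12.37. It read 12.47, 11.79 and 11.84 after ischemia. Control 69 was above ischemic rats 65 and 66, so the groups overlapped. The change of 0.50 (SE 0.35, 95% interval -0.30 to 1.31) had an adjusted p of 0.28, and the second probe set gave 0.59 (adjusted p = 0.249). The interval leaves room for no change and for a rise of up to 1.31. In the brighter probe sets *Plaur* changed by 2.53 more than *Plau*. The interval of the second *Plaur* set, 0.75 to 2.29, overlapped that of *Plau*. The difference of 2.53 had an exact two-sided permutation p of 0.1, the smallest that 3 rats against 3 can give.

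*Plat*, the other activator, read 9.63, 6.64 and 7.01 in controls and 8.33, 7.91 and 8.42 after ischemia. Control 63 was the highest of all 6 rats, whereas controls 68 and 69 were under the background level and lower than every ischemic rat. The control SD of 1.63 was the widest of the 9 genes, and the change of 0.46 (SE 0.68, 95% interval -1.10 to 2.02) had an adjusted p of 0.612. Without control 63 the change was 1.39 and past the test (adjusted p = 0.00522). Both controls left were then within background, so the size of this change is not known. Without control 68 the change was -0.10 (adjusted p = 0.918). The result for *Plat* thus rested on control 63.

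The same control rat stood out in genes of vessels. *Cldn5*, a tight junction protein of brain endothelium, read 10.52 in control 63, 6.09 and 7.03 in the other controls and 7.13 to 7.84 after ischemia. *Kdr*, a receptor for VEGF, read 9.39 in control 63 and at most 6.75 in any other rat, and the mural cell gene *Rgs5* read 10.13 there and at most 7.48 elsewhere. Over the whole list of 13 endothelial markers the mean was 9.66 in control 63, 7.86 and 8.17 in the other controls and 7.88 to 8.06 after ischemia. Control 63 was the highest rat for 8 of the 13, for 5 of 9 mural cell markers and for 7 of 8 astrocyte markers. The mean of the 9 mural cell markers was 7.42 in control 63 and 6.53 to 6.82 in the other rats, and that of the 8 astrocyte markers was 8.97 in control 63 and 7.33 to 8.22 in the others. Between the groups, of the 9 endothelial markers tested 0 rose and *Egfl7* fell. At an unadjusted p under 0.05 none was higher after ischemia, and *Tek* (-1.93, adjusted p = 0.0163) and *Ocln* (-0.38, adjusted p = 0.0919) were lower. Of 4 mural cell markers tested, *Cspg4* rose by 1.34 (adjusted p = 0.00381). The part of these cells' RNA in the value of *Plat* was not tested.

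**Figure D2:**
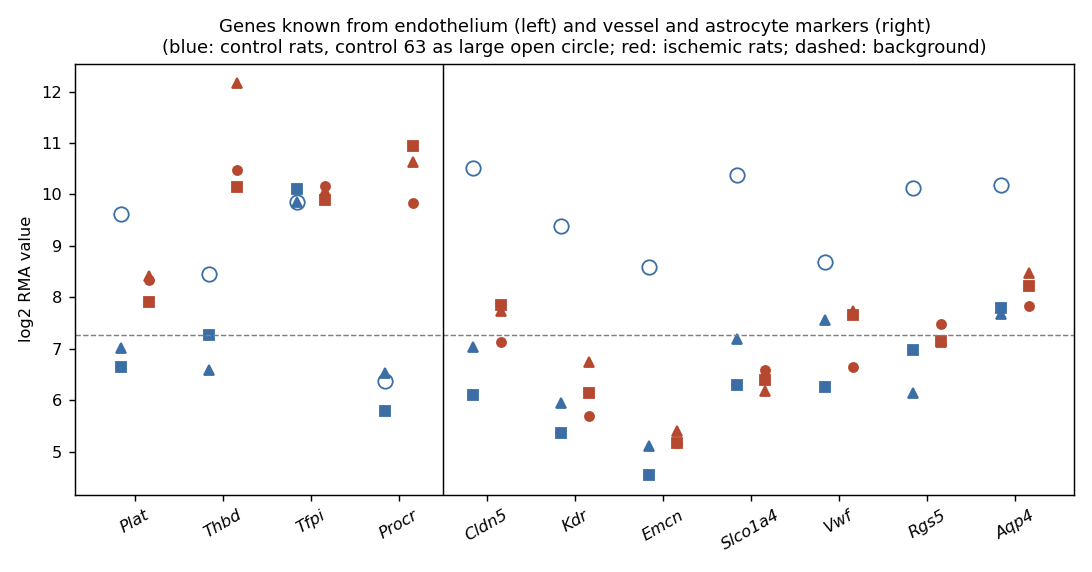
Log2 RMA values (y axis) in each rat of 4 genes known from endothelium (left of the line) and of 7 markers of endothelium, mural cells and astrocytes (right), with control 63 as a large open circle and the background level of 7.26 as a dashed line. Control 63 is highest for *Plat* and for all 7 markers shown, but lies with or below the ischemic rats for *Thbd*, *Tfpi* and *Procr*. The 7 are only a part of the marker lists. Over the whole lists control 63 was highest for 8 of 13 endothelial, 5 of 9 mural cell and 7 of 8 astrocyte markers.

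*Serpinb2*, the intracellular and secreted inhibitor of both activators, read 4.19, 4.19 and 4.12 in controls, near the floor of the array. It read 4.79, 7.86 and 6.73 in ischemic rats 64, 65 and 66. All ischemic values were above all controls, but only that of rat 65 exceeded the background level, and the ischemic SD of 1.55 was the widest of the 9 genes in that group. In a fit without the low-signal filter the adjusted p was 0.0442, which did not pass the threshold. No fold is given, since the means of both groups, 4.17 and 6.46, were within background.

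*F3*, tissue factor, the cell surface protein that starts coagulation, read 6.17, 6.01 and 6.45 in controls and 7.53, 6.83 and 7.49 after ischemia. Every ischemic rat was higher than every control, and rats 64 and 66 were just above the background level. The difference between the means of 6.21 ± 0.22 and 7.28 ± 0.39 (SD, n = 3) was 1.07, with an adjusted p of 0.0114 in the fit without the filter. That did not pass the threshold, and the array gives no usable fold for a gene so close to background.

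*F10*, the precursor of the protease that makes thrombin, read 8.39, 8.38 and 7.84 in controls. It read 9.49, 9.18 and 9.36 after ischemia. The groups were separated by 0.79, and the ischemic rats lay closer together than the controls. The change was 1.14 (SE 0.18, 95% interval 0.72 to 1.56, adjusted p = 0.0024) or 2.20-fold. With the arrays centred on 40 ribosomal protein genes, a scaling that lowers the median change of all genes from 0.10 to -0.32, the change in *F10* was 0.71 and the call was lost (adjusted p = 0.0608). Under that scaling the rises made up 23.1% of all calls, against 73.7% in the values as deposited. The control mean of 8.20 also lay under the 8.74 of the highest gene of other tissues.

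*Thbd*, thrombomodulin, read 8.46, 7.27 and 6.59 in controls and 10.48, 10.15 and 12.16 after ischemia. Rat 66 was the highest by a clear margin, control 63 was the highest control, and the groups were 1.69 apart. The change was 3.49 (95% interval 2.12 to 4.86, adjusted p = 0.00315) or 11.2-fold. The control level was close to the background level of 7.26. Control 63 was clearly above it, control 68 only just above it and control 69 under it, so the size of the change is uncertain. The call was lost without control 68 (3.41, adjusted p = 0.0158) and without control 69 (3.06, adjusted p = 0.0112), and held without control 63 (adjusted p = 0.00542).

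The array reads *Thbd* with 3 probe sets, all higher in every ischemic rat than in any control. The second in brightness read 7.19, 6.35 and 6.18 in controls and 9.77, 9.36 and 11.34 after ischemia, with a change of 3.58 (adjusted p = 0.00131). As all its control values were within background, that is at least 7.43-fold. The dimmest had no control value above background, and its change of 1.87 was just short of the threshold (adjusted p = 0.0131). Rat 66 was the highest rat in all 3 sets.

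*Procr*, which binds protein C and presents it to the thrombin-thrombomodulin complex, was within background in every control. It read 6.37, 5.78 and 6.53 in controls and 9.83, 10.93 and 10.64 after ischemia. The gap between the groups was 3.3. The mean went from 6.23 ± 0.40 to 10.47 ± 0.57 (SD, n = 3), a log2 fold change of 4.24 (95% interval 3.54 to 4.94, adjusted p = 0.000145). Against the background level this is at least 9.22-fold, since the array sets only an upper limit on the control level. *Procr* passed the low-signal filter through the ischemic rats alone, and it is 1 of the genes that the study itself lists as most increased on these arrays.

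*Tfpi*, the inhibitor of tissue factor, was the steadiest of the 9. It read 9.84, 10.10 and 9.85 in controls and 10.17, 9.89 and 10.07 after ischemia. The groups overlapped, and no rat was more than 0.24 from the control mean. The change was 0.11 (SE 0.14, adjusted p = 0.553) with a 95% interval of -0.21 to 0.43, and the second probe set gave 0.22 (adjusted p = 0.399). The interval excludes a rise of the size seen in *F10*. Its sign turned with ribosomal centring (-0.31) and with repeated quantile normalization (-0.026). Within the arrays *Thbd* changed by 3.38 more than *Tfpi*, at an exact two-sided permutation p of 0.1, the smallest possible. The size of this difference is uncertain, as the control level of *Thbd* was close to background. For *Procr* and *Tfpi* the p was also 0.1, and the size of that difference is not given because the control values of *Procr* were within background. With the receptor and its ligand above these were 3 pairs, chosen after their values were seen, and the Benjamini-Hochberg value was 0.1 for each.

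**Figure D3:**
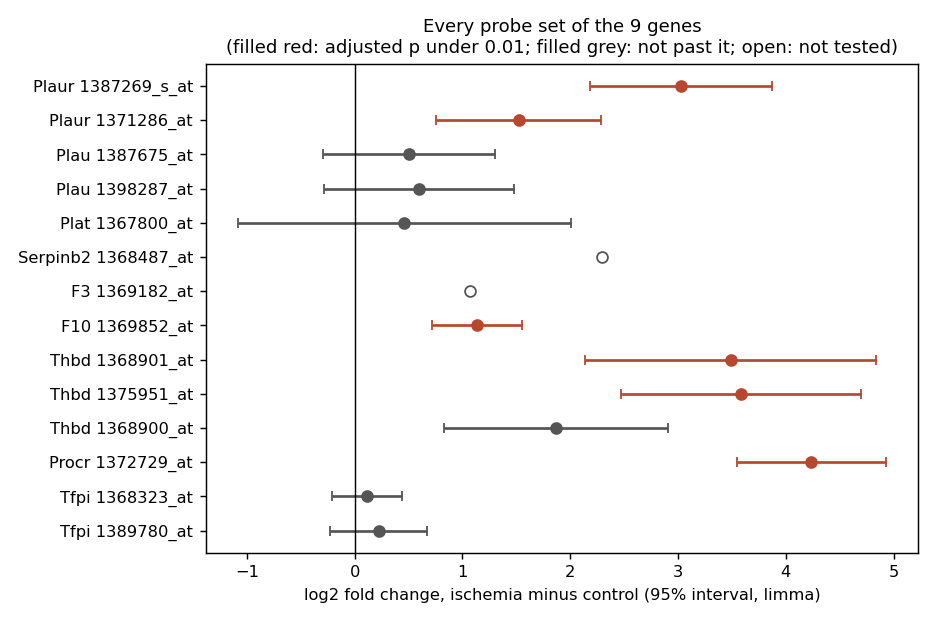
Log2 fold change of ischemia minus control with its 95% interval (x axis) for all 14 probe sets of the 9 genes (y axis), from limma over all probe sets, with open points for *Serpinb2* and *F3*, which were not tested. The 2 sets of *Plaur* and the 3 of *Thbd* lie on the same side of 0, and both sets of *Plau* and of *Tfpi* have intervals that include 0.

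The ischemic rats did not rank alike across the genes. Relative to the control mean, *Plaur* stood 2.25, 3.28 and 3.55 higher in rats 64, 65 and 66. Rat 64 was the lowest ischemic rat in *Plaur* and in *Procr*. *F10* was 1.29, 0.97 and 1.15 higher and *Thbd* 3.04, 2.71 and 4.72 higher, so rat 65 was the lowest in both. *Serpinb2* and *F3* were too close to background for such an order. Over all genes that rose, the median shift was 0.87, 1.03 and 1.08 in the same rats. With 3 rats a group, these orders carry no test.

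Most monocyte markers rose with the 4 genes above, and 1 of the 4 granulocyte markers tested did. Of 5 monocyte markers on the array, 4 rose (*Ly6c*, *Plac8*, *Vcan* and *Fn1*), against 16.8% of all genes tested. The study lists *Vcan* and *Fn1* among the genes most increased on these arrays, and relates them to the extracellular matrix. As the list was chosen with such results known, its count is only a description. *Vcan* was within background in every control and entered the test through the ischemic rats alone. The mean over the list lay between 8.43 and 9.48 in control rats and between 12.06 and 13.21 in ischemic rats. *Ccr2*, the chemokine receptor of blood monocytes, was 12.06 in controls and 12.49 after ischemia and was not past the test. The 6 granulocyte markers had means of 6.56 to 6.89 and 7.46 to 8.09. Of the 4 tested, *S100a8* rose, with a fitted change of 3.36. Its control values were all within background, so it too entered the test through the ischemic rats alone. *S100a9* (2.19, adjusted p = 0.0119), *Csf3r* (0.93, adjusted p = 0.0113) and *Cxcr2* (-0.50, adjusted p = 0.179) were not past the test, and *Mmp8* and *Camp* had means under background in both groups. Ischemic values of *S100a9* and *Csf3r* were nevertheless all above the control values, whereas those of *Cxcr2* overlapped them. The 5 platelet markers lay at 6.76 to 7.02 in controls and 6.75 to 6.78 after ischemia. Of these 2 were tested and none was past the test in limma, with *Gp9* at an unadjusted p of 0.0381. Among 8 astrocyte markers 6 were tested and 1, *Gfap*, rose (by 2.07), with a median change of 0.03 over the 6. The others were not past the test. Their changes were -0.37 for *Aqp4*, -0.60 for *Slc1a2*, -0.08 for *S100b*, 0.13 for *Slc1a3* and 0.23 for *Gja1*. By flow cytometry of separate sorts, the study found some granulocytes among the cells sorted from ischemic tissue. It also reports that most cells sorted from control brain carried both sort markers. In its flow cytometry of brain tissue, the CD163+ population at 16 h was similar to that of controls. The study took most CD163+ cells at that time to be resident macrophages. The part of other cells' RNA, granulocytes included, in the rises of *Plaur*, *F10*, *Thbd* and *Procr* was not tested.

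The genes whose 6 values most resembled those of the 2 genes with the largest fitted change were found by the root mean square (RMS) difference over the 6 arrays, after subtraction of each gene's control mean. For *Procr* they were *Ccl17*, a chemokine (RMS difference 0.35, log2 fold change 3.98), *Bst1*, an ectoenzyme of myeloid and stromal cells (0.38, 3.88), and *G0s2*, an inhibitor of triglyceride lipase (0.39, 3.93). For *Thbd* they were *S100a8*, a calcium-binding protein of myeloid cells (0.36, 3.36), *Slc28a2*, a nucleoside transporter (0.63, 3.64), and *Smpdl3b*, a membrane phosphodiesterase (0.66, 3.28). The control values of *Procr* and of *S100a8* were all within background, so the likeness there rests on the ischemic rats. *S100a8* and *Thbd* were both highest in ischemic rat 66.

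Around the 9 genes, a list of 21 other genes of the plasminogen system was read, of which 18 were on the array as named genes and 14 were tested. In it 8 rose and 1 fell, against 16.8% and 5.99% of all genes tested, and the median log2 fold change of those tested was 1.48, against 0.10 over all genes tested. Among the surface receptors for plasminogen, *Anxa2* went from 12.92 to 14.41 (1.49, SE 0.20, adjusted p = 0.00119). Its partner *S100a10*, which captures plasminogen through its C-terminal lysine, rose by 1.48 (SE 0.18, adjusted p = 0.000962). *Eno1*, a glycolytic enzyme that also binds plasminogen at the cell surface, rose by 2.17 (SE 0.17, adjusted p = 0.000238).

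Of the 4 integrin chains listed, partners of the urokinase receptor, 3 rose. *Itgb3*, the beta chain of the vitronectin receptor, went from 7.61 to 11.003 (3.39, SE 0.14, adjusted p = 4.22e-05). *Itgb2* rose by 1.96 (SE 0.19) and its partner *Itgam*, which encodes the CD11b used in the sort, by 2.24 (SE 0.14). *Itgav*, the alpha chain that pairs with *Itgb3*, was 11.05 in controls and 11.34 after ischemia and was not past the test (adjusted p = 0.098). *Plgrkt*, a plasminogen receptor with a C-terminal lysine, had a change of -0.22 (adjusted p = 0.556).

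The endocytic receptors that clear activator and inhibitor complexes moved apart. *Lrp1* went from 10.64 to 12.96 (2.32, SE 0.24, adjusted p = 0.000578), though its other probe set changed by 0.64 and was not past the test. *Igf2r*, which also binds the urokinase receptor, rose by 3.04 (SE 0.46, adjusted p = 0.00197), a call that was lost without control 63. *Vldlr* fell from 11.39 to 9.35 (-2.03, SE 0.17, adjusted p = 0.000273), and all 4 of its probe sets fell, by -1.49 to -2.03. *Plg*, plasminogen itself, was within background in every rat and was not tested.

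**Figure D4:**
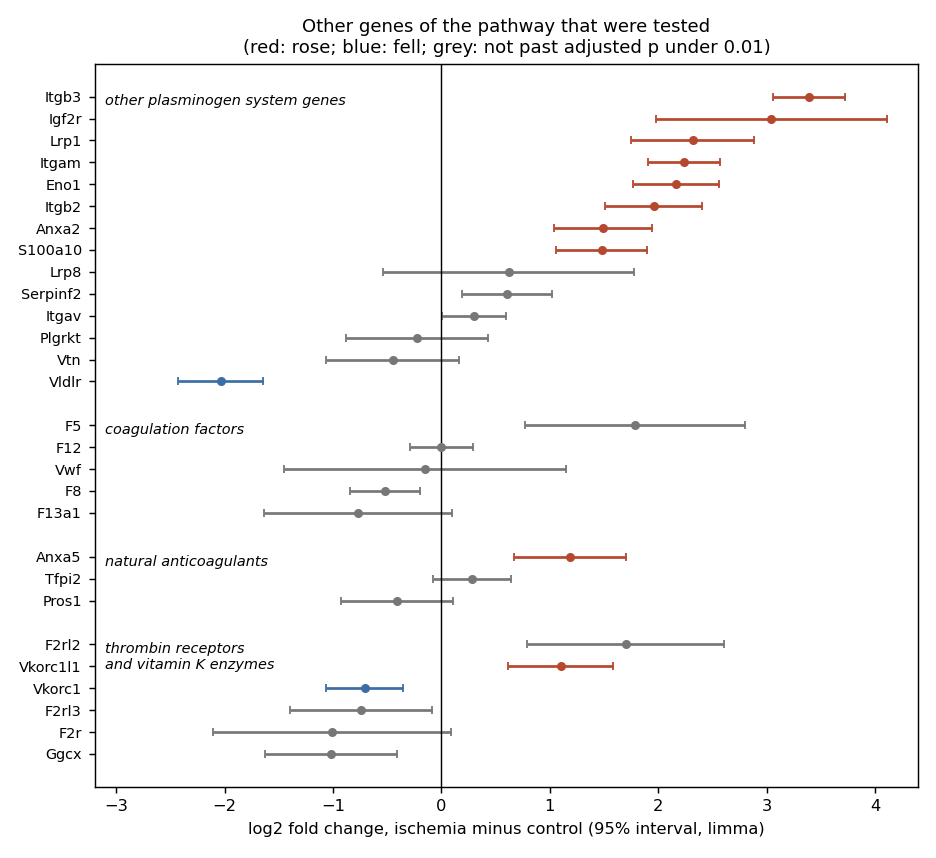
Log2 fold change of ischemia minus control with its 95% interval (x axis, limma, n = 3 rats per group) for the tested genes of the 4 pathway lists (y axis), coloured by whether they rose, fell or were not past the test. The plasminogen list, the longest with 14 genes tested, holds 8 of the 10 rises shown. None of the 5 coagulation factors tested is coloured, which is too few for a result about them.

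Of 15 other coagulation factors listed, 11 were on the array, 5 were tested and 0 rose or fell in limma, with 2, *F5* and *F8*, at an unadjusted p under 0.05. Over all genes tested 16.8% rose and 5.99% fell, and with so few factors tested a count of 0 is not a result about them. Of 20 alternative settings, 14 also called 0 and the others called 1 to 3. *F13a1*, the fibrin-crosslinking transglutaminase and itself a marker of these macrophages, was 13.95 in controls and 13.18 after ischemia (-0.77, adjusted p = 0.136). *F8* was 11.38 and 10.86 (-0.52, adjusted p = 0.0187). The 5 probe sets of *F8* changed by between -0.53 and -0.00049, and none was past the test. *F5*, the cofactor of activated factor X and named after its values were seen, read 9.58, 7.65 and 8.03 in controls and 9.95, 10.42 and 10.26 after ischemia. Its groups did not overlap, but its adjusted p was 0.0136. Without control 63 its change went from 1.79 to 2.37 and passed the test (adjusted p = 0.0018). Prothrombin (*F2*), *F9*, the 3 fibrinogen chains (*Fga*, *Fgb* and *Fgg*) and *Klkb1* were within background in every rat.

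Among the other natural anticoagulants 8 of 9 were on the array, 3 were tested and 1 rose. Over all genes tested 16.8% rose, and with 3 genes tested a count of 1 is not a result about them. *Anxa5*, which covers exposed phosphatidylserine, went from 11.26 to 12.45 (1.19, SE 0.22, adjusted p = 0.00452), and its call was lost in 7 of 20 alternative settings. *Pros1*, protein S, the cofactor of activated protein C, had a change of -0.41 (adjusted p = 0.175) and *Tfpi2* one of 0.28 (adjusted p = 0.183). *Proc*, protein C itself, was within background in every rat, between 5.89 and 6.03.

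Of the thrombin receptors and vitamin K enzymes, 6 of 7 were tested. In this list 1 rose and 1 fell, against 16.8% and 5.99% of all genes tested. *Vkorc1l1*, a vitamin K epoxide reductase, rose by 1.10 (SE 0.21, adjusted p = 0.00487), and *Vkorc1*, its paralog, fell from 12.24 to 11.53 (-0.71, SE 0.15, adjusted p = 0.00839). Each of these calls was lost in 8 of 20 alternative settings. *Ggcx*, the carboxylase that matures factor X and protein C, had a change of -1.02 (adjusted p = 0.0169), and *F2r*, the main thrombin receptor, one of -1.01 (adjusted p = 0.124). *F2rl2*, of the same list and named after its values were seen, differed in the other direction (1.70, adjusted p = 0.0109) and was not past the test.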

How the data were processed

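RNA of sorted CD11b+CD163+ cells from 6 rats was hybridized to Affymetrix rat genome arrays after amplification with a 3′ kit. For 31099 probe sets the authors deposited log2 values from RMA, which corrects background, normalizes quantiles and summarizes probes. No further normalization was applied. The notes of the submitters name R 3.3.1 and limma 3.18. Of the probe sets 20826 carried a single gene symbol, 436 several and 9780 none, and 57 were controls. Only those with a single symbol were named. The annotation gives no position for them.

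The probe set with the highest mean stood for a gene, and genes were tested if 3 or more arrays were above the 40th percentile of the values (7.16). Groups were compared in R 4.3.3 with limma 3.58.1 (lmFit, eBayes), two-sided, with no covariates, and the steps were tested on simulated data. All probe sets of the 9 genes were also read in a fit over all probe sets with a single symbol. Exact permutation tests served single values. Lists are described by counts and medians.

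The genes named are the 9 members, every pathway gene past the test with the 2 of highest mean in each list that were not, the nearest 3 profiles of the 2 members with the largest fitted change, and the markers a sentence needs. The members, lists and rules were chosen with earlier results of these data known. Precision is set by the number of rats, as arrays have no read depth. Alternatives changed the filter, the probe set, the scaling, the moderation, array weights, the threshold and each rat left out. The CD163-negative cells and other experiments of the study are not analysed here.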

Additional observations from a re-analysis of the deposited data

How the results depend on the processing

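Under 20 alternative settings the calls of *Plaur*, *F10*, *Thbd* and *Procr* kept their direction, with log2 fold changes of 2.27 to 3.41, 0.71 to 1.23, 2.87 to 4.0 and 3.81 to 4.56. The count of the 9 genes that rose was 4, and 3 to 5 when a rat was left out. It was 5 without control 63, as *Plat* was added (1.39), with controls 68 and 69 both within background. It was 3 without control 68 or 69, as *Thbd* was lost. The count that fell was 0 in every setting. Without moderation of the variances 0 of the 9 rose, and 0 genes were called in any list or in all, the lowest adjusted p being 0.0101. There 4 of the 9 and 4478 of all genes had an unadjusted p under 0.05. *F10* was also lost with ribosomal centring and with a fold change beyond 2 required. *Plat* turned to -0.10 without control 68, and *Tfpi* to -0.31 with ribosomal centring and -0.026 with repeated quantile normalization. The cause of these changes was not tested.

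Over all genes, 1664 rose and 595 fell. With a rat left out 681 to 1564 rose and 166 to 816 fell. The rises numbered 1006 without control 63, 1110 without control 68 and 985 without control 69. The counts were 395 and 1316 with ribosomal centring, 2722 and 1377 at an adjusted p under 0.05, and 162 and 58 with a fold change beyond 2 required. Falls numbered 930 with repeated quantile normalization and 1309 with array weights. Other plasminogen genes called were 9, and 8 to 9 with a rat left out. Coagulation factors called were 0, and 1 with the 60th percentile filter, 2 with ribosomal centring, 1 with repeated quantile normalization, 3 with array weights, 2 at an adjusted p under 0.05 and 0 to 1 with a rat left out. Of natural anticoagulants 1 was called, and 0 with ribosomal centring or a fold change beyond 2, and 0 to 1 with a rat left out. Thrombin receptors and vitamin K enzymes called were 2, and 1 without the low-signal filter, 4 with array weights, 4 at an adjusted p under 0.05, 0 beyond 2, and 0 to 4 with a rat left out. No paired analysis was possible because the rat numbers of the 2 groups are not shared.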
